A study of Mus musculus with 27 samples.

Results

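The genes described here encode 9 inhibitory receptors of T cells, often called checkpoint receptors: Pdcd1 (PD-1), Lag3, Havcr2 (TIM-3), Tigit, Ctla4, Cd160, Entpd1 (CD39), Cd200r1 and Btla. They were taken by symbol from the gene table, in which all 9 of 9 were found among 47729 genes, and all 9 passed the filter on low counts that left 14059 genes for testing. The filter asks for enough counts in as many libraries as the smallest group holds. Reads per gene had been counted by RNA-seq in 27 libraries, each made from CD8+ T cells sorted out of MC38 tumours, a transplantable mouse colon adenocarcinoma. The tumours were digested and the cells sorted on a viability dye and antibodies to CD3, CD8, CD45, KLRG1 and PD-1. KLRG1 is a receptor found on NK cells and on T cells late in effector differentiation. The mice had received either an isotype control (Iso) or the combined immunotherapy labelled Tri, which the series text calls TCT and whose components no source used here names. The groups were Tri PD1+KLRG1+ (5 libraries), Tri PD1+KLRG1- (5), Tri PD1-KLRG1+ (4), Tri PD1-KLRG1- (5), Iso PD1-KLRG1+ (4) and Iso PD1-KLRG1- (4). The labels used here do not state age, sex, host strain or pooling of mice. The labels do not say that the libraries of a group came from separate mice, so p-values measure the spread between these libraries, which may be technical in part. No PD1+ libraries under Iso were analysed here, so Tri and Iso were compared in PD1- cells only. The series set out to profile gene expression in CD8+ subsets arising with the treatment, and the receptors bear on how the PD-1 gate, the KLRG1 gate and the treatment divide those cells.

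Inhibitory receptors are switched on by T cell activation and limit the response that follows. Most bind a ligand on another cell and recruit phosphatases or compete with a stimulatory receptor for that ligand, while CD39 is an enzyme that starts the breakdown of extracellular ATP towards adenosine. In tumours several of these receptors are found together on CD8+ T cells under lasting antigen stimulation, whereas BTLA is also held by naive and memory-like T cells.

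All positions are given on GRCm38 as annotated by GENCODE M21. No source used here names the authors' build, so these positions locate the genes and were not used for counting. Pdcd1 (ENSMUSG00000026285) lies on the minus strand of chromosome 1 from 94038305 to 94052553, and Ctla4 (ENSMUSG00000026011) on the plus strand of the same chromosome from 60887000 to 60915832. Tigit (ENSMUSG00000071552, minus strand, 43648867 to 43664146), Cd200r1 (ENSMUSG00000022667, plus strand, 44765736 to 44794978) and Btla (ENSMUSG00000052013, plus strand, 45224315 to 45257670) all lie on chromosome 16. Lag3 (ENSMUSG00000030124) is on chromosome 6 from 124904361 to 124911705, minus strand, and Havcr2 (ENSMUSG00000020399) on chromosome 11 from 46454935 to 46481255, plus strand. Cd160 (ENSMUSG00000038304) is on chromosome 3 from 96798763 to 96829351, minus strand, and Entpd1 (ENSMUSG00000048120) on chromosome 19 from 40612366 to 40741602, plus strand. Cd200r1 belongs to a family of similar receptor genes, and how reads shared with its relatives were counted is not given, so its counts are uncertain to that extent. Of those relatives, Cd200r4 had 2.49 to 50.6 CPM (counts per 1000000 of the library's total) in the 5 Tri PD1+KLRG1+ libraries. Whether the counting used strand is also not given, so reads of an antisense transcript could not be told apart.

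RefSeq promoter windows (GRCm38.p6) were at hand for 7 of the 9 members, all but Lag3 and Cd200r1. Of each window the 250 bases before the start site were searched on both strands for the NFAT core GGAAA, the AP-1 motif TGANTCA, the RUNX motif TGTGGT and the TCF motif CTTTGA, motifs of factors that act downstream of the T cell receptor or in T cell identity. The windows below are shown because Pdcd1, Havcr2 and Tigit stood higher in PD1+ than in PD1- libraries within each KLRG1 gate under Tri, with no overlap, and Btla stood lower. Capitals mark an NFAT core or an AP-1 motif on either strand, each sequence runs 5′ to 3′ along the gene's strand, and the windows are chr1:94052554-94052803 (minus), chr11:46454681-46454930 (plus), chr16:43664185-43664434 (minus) and chr16:45224087-45224336 (plus). The last bases of the Btla window lie within the gene as GENCODE M21 draws it.
Pdcd1: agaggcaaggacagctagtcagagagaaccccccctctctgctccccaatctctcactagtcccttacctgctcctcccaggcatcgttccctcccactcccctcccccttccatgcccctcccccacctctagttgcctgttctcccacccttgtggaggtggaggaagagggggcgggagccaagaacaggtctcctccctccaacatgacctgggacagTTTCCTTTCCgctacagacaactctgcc
Havcr2: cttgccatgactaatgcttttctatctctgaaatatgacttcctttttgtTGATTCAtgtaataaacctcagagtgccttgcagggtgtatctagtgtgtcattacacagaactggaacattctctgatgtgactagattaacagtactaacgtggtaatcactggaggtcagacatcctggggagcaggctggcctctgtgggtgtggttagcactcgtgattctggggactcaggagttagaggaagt
Tigit: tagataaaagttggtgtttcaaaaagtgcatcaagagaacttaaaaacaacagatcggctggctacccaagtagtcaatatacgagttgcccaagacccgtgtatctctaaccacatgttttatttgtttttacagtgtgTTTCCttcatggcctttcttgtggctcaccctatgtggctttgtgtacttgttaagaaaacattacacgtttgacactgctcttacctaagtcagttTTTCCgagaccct
Btla: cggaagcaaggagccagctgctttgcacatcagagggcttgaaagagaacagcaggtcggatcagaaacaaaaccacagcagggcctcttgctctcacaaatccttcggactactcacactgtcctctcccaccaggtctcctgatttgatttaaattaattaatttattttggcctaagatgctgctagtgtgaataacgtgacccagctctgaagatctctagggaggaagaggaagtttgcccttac
The Pdcd1 window held 2 NFAT cores next to each other, from -28 to -24 and from -23 to -19, counted from the base before the start as -1, both on the reverse strand. In the Tigit window 2 cores lay at -110 to -106 and -13 to -9, also on the reverse strand. The Havcr2 window held no NFAT core but 1 AP-1 motif at -200 to -194 and 1 RUNX motif at -46 to -41, while the Btla window held neither an NFAT core nor an AP-1 motif but 1 RUNX motif at -178 to -173. Over the 9 windows of the 7 members, 5 had an NFAT core, 1 had an AP-1 motif, 5 had a RUNX motif and 1 had a TCF motif. Among all 32851 windows of the same length, 55.6% had an NFAT core, 6.75% an AP-1 motif, 14.0% a RUNX motif and 13.8% a TCF motif. A match is a description of the letters only.

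Iso PD1-KLRG1+ replicate 3 held 93198 counts in total, and the other 26 libraries 6991521 to 26284630. The Iso PD1-KLRG1+ libraries stood apart: of 6951 genes whose median reached 20 CPM, 9.81% to 29.4% had no count in such a library, against at most 3.57% in any other. They enter the shared estimate of the spread in every fit of all 27 libraries, so calls of comparisons that do not use the group are also given from a fit without them, chosen after the data were seen. Markers of CD8 T cells were present throughout, with Cd8a at 743 to 2435 CPM and Cd3e at 725 to 1962 CPM over all libraries. Of markers of other cells, Cd4 reached at most 7.15 CPM, while Lyz2, a myeloid gene, reached 824 CPM in Iso PD1-KLRG1- and 1644 CPM in Iso PD1-KLRG1+. The sort was visible in Klrg1, with group means of 94.2, 245 and 212 CPM in the 3 KLRG1+ groups (Tri PD1+, Tri PD1-, Iso PD1-) and of 5.18, 19.3 and 1.76 CPM in the matching KLRG1- groups. In bulk libraries a smaller number of cells holding a transcript and a lower amount per cell cannot be told apart.

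**Figure D1:**
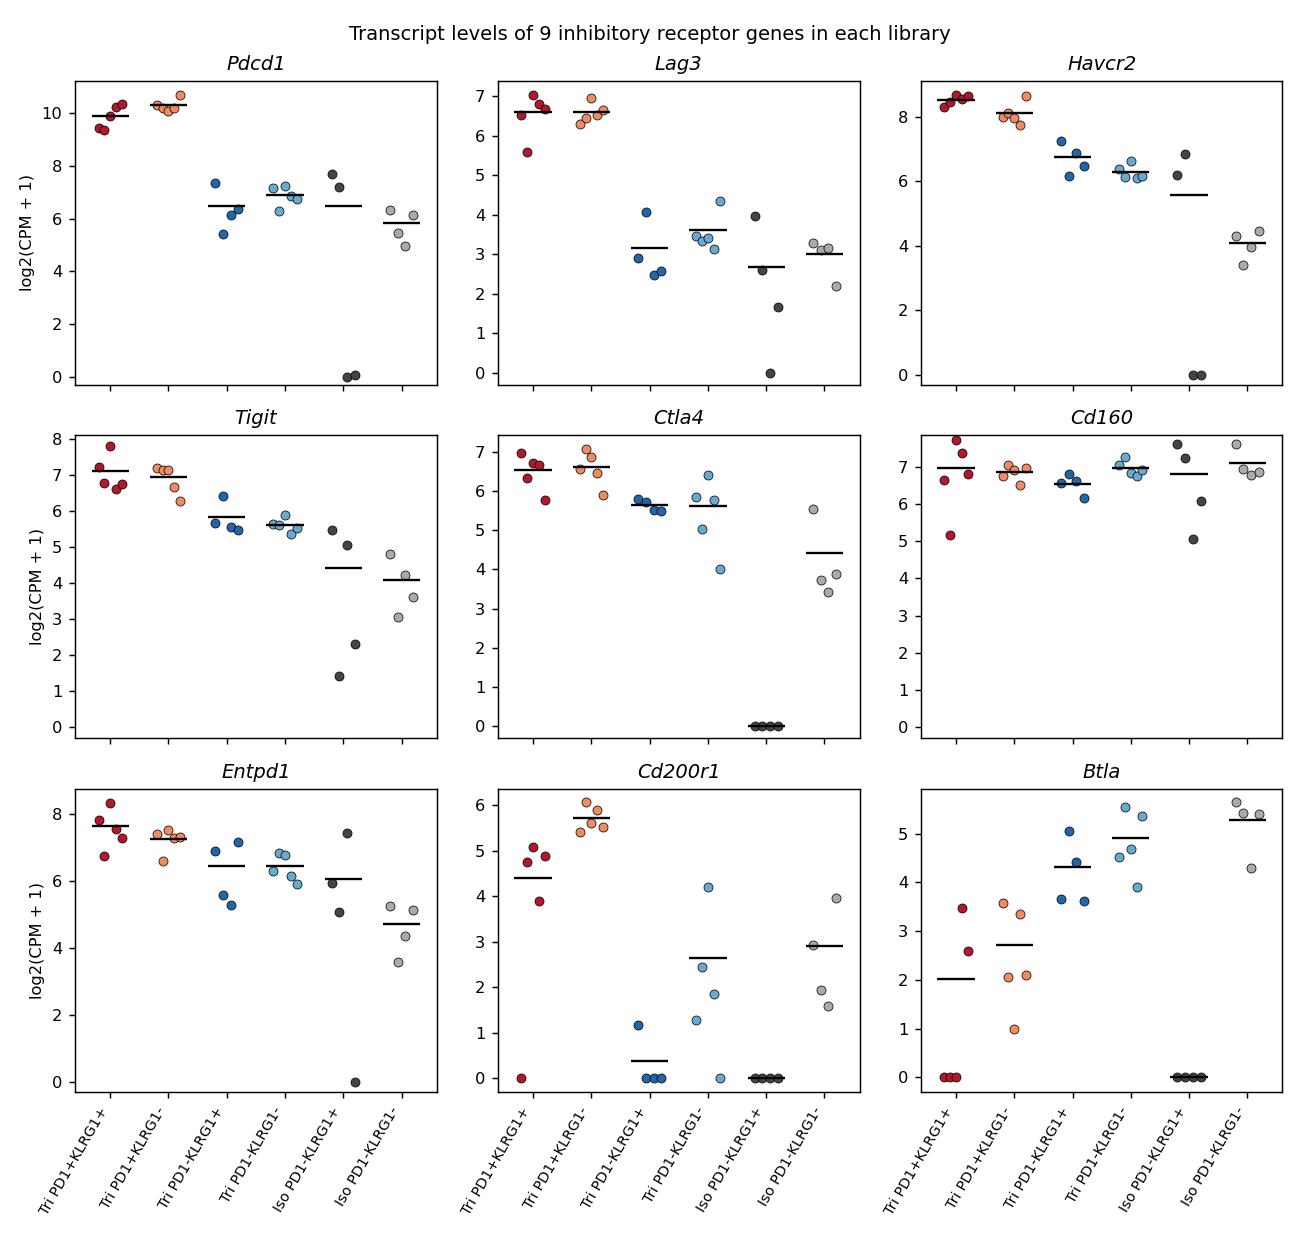
Level of each of the 9 genes in every library, as log2(CPM + 1) on the vertical axis, by sorted group on the horizontal axis. Points are libraries and bars the group's mean CPM on the same scale. Lag3, Havcr2 and Tigit stand higher in every Tri PD1+ library than in the matching PD1- libraries, Btla stands lower, Cd160 differs little between groups, and Ctla4, Cd200r1 and Btla are at 0 in all 4 Iso PD1-KLRG1+ libraries.

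Pdcd1 encodes the protein used for the sort, so its level checks the gate and is no result. Pdcd1 averaged 960.2 ± 291 CPM (SD, n = 5) in Tri PD1+KLRG1+ cells and, without KLRG1, 1269 ± 221 CPM (n = 5). In PD1- cells under Tri, with and without KLRG1, it averaged 88.8 ± 52.5 CPM (n = 4) and 118 ± 29.0 CPM (n = 5), 10.8-fold lower within each KLRG1 gate. The lowest PD1+ library stood at 656 CPM and the highest Tri PD1- library at 164 CPM, so the gates did not overlap. Pdcd1 transcript was present in PD1- cells too, where it was 55.3 ± 22.8 CPM (n = 4) in Iso PD1-KLRG1-. The Iso PD1-KLRG1+ libraries spread from 0 to 204 CPM, with replicates 3 and 4 at 0 and 0.0502 CPM.

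Compared between genes per kilobase of annotated exon, Pdcd1 was the most abundant of the 9 transcripts in Tri PD1+KLRG1+ cells at a mean of 498 CPM per kb. Next came Tigit at 149 and Havcr2 at 135 CPM per kb, then Cd160 at 47.2, Lag3 at 45.7, Ctla4 at 39.3 and Entpd1 at 36.0 CPM per kb, with Cd200r1 at 6.06 and Btla at 0.896. In Iso PD1-KLRG1- cells, the double-negative cells of isotype-treated mice, the order on the same scale was different. There Cd160 led at 51.3 CPM per kb, followed by Pdcd1 at 28.7, Tigit at 17.3 and Btla at 11.1, while Ctla4 stood at 8.75, Havcr2 at 5.86, Entpd1 at 4.56, Lag3 at 3.31 and Cd200r1 at 1.95 CPM per kb. Lag3 and Cd160 were thus at like levels per kilobase in PD1+ cells and Cd160 far above Lag3 in Iso PD1-KLRG1- cells. These levels rest on the annotated exons and not on the isoforms in use.

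**Figure D2:**
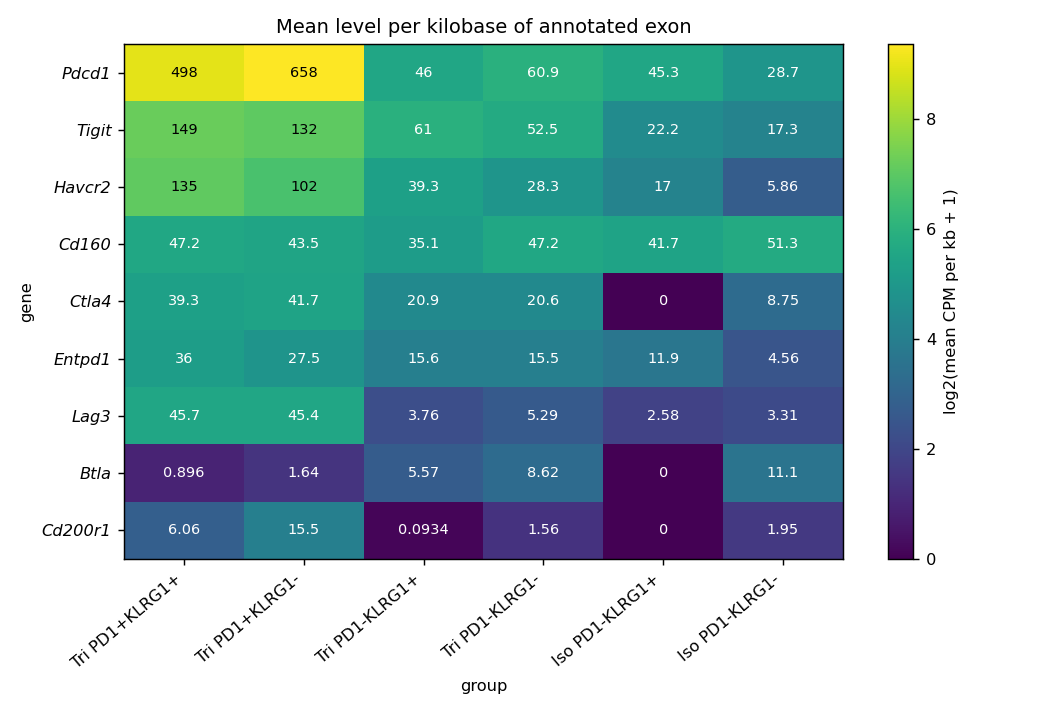
Mean level of each gene (rows) in each group (columns) as CPM per kilobase of annotated exon, printed in each cell and coloured by log2(mean CPM per kb + 1). Pdcd1 reaches 498 and 658 CPM per kb in the 2 PD1+ groups, Cd160 stays between 35.1 and 51.3 in all 6 groups, and Btla is highest, at 11.1, in Iso PD1-KLRG1- cells.

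The PD-1 gate was compared under Tri within each KLRG1 gate, which asks which of the other 8 receptors follow PD-1 protein. Lag3 rose with PD-1 in both gates, to 12.2-fold the mean CPM in KLRG1+ and 8.59-fold in KLRG1- cells. Havcr2 and Tigit stood 2.44-fold to 3.60-fold higher in PD1+ cells with no overlap of libraries, Cd200r1 stood higher and Btla lower by larger but less certain factors, and Ctla4, Entpd1 and Cd160 had overlapping libraries. The call used throughout was an adjusted p under 0.05 by edgeR's quasi-likelihood test with Benjamini-Hochberg adjustment over all 14059 genes. By that call 1 of the 8 receptors rose in each KLRG1 gate and 0 fell, against 0.491% of all genes tested called higher and 0.711% called lower in KLRG1+ cells, and 0.619% and 0.939% in KLRG1- cells. Libraries did not overlap for 3 receptors higher and 1 lower in PD1+KLRG1+ cells, where 2.46% and 2.25% of all genes did so, and for 4 higher and 1 lower in PD1+KLRG1- cells, where the shares of all genes were 5.52% and 2.92%. The comparisons in the KLRG1+ and in the KLRG1- gate share no library.

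Lag3 encodes a receptor that binds MHC class II and other ligands and damps T cell receptor signalling. In the 5 Tri PD1+KLRG1+ libraries it stood at 91.6, 47.1, 130.1, 112 and 102 CPM, and in the 5 Tri PD1+KLRG1- libraries at 77.8, 86.0, 124, 91.8 and 99.6 CPM. The 4 Tri PD1-KLRG1+ libraries held 6.42, 15.7, 4.57 and 5.01 CPM, and the 5 Tri PD1-KLRG1- libraries 10.0, 9.04, 9.66, 7.77 and 19.3 CPM. Every PD1+ library thus lay above every PD1- library, with the nearest values at 47.1 and 19.3 CPM. With PD-1, Lag3 rose by 3.58 ± 0.67 (SE) on the log2 scale in KLRG1+ cells (edgeR adjusted p = 0.00406) and 3.03 ± 0.59 in KLRG1- cells (adjusted p = 0.00366). In Iso cells Lag3 overlapped the Tri PD1- cells, at 3.58 to 8.75 CPM in Iso PD1-KLRG1- and 0 to 14.6 CPM in Iso PD1-KLRG1+. The Lag3 calls were lost when the 18 libraries whose names lack an RNA number were fitted alone, with log2 fold changes of 3.25 and 3.27 (adjusted p = 0.0587 and 0.0849), and in the 9 others alone, at 4.39 and 2.81 (0.485 and 0.29). The fit of those 9 libraries has 1 library in Tri PD1-KLRG1+ and called 1 and 7 genes of all tested in these comparisons, so a call was hardly possible there. That naming difference was the only sign of a batch in the labels and was a term of the model.

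Havcr2 encodes TIM-3, a receptor of galectin 9, phosphatidylserine and other ligands that marks strongly stimulated CD8+ T cells. Its libraries stood at 311, 349, 406, 377 and 397 CPM in Tri PD1+KLRG1+ and at 252, 274, 249.4, 213 and 399 CPM in Tri PD1+KLRG1-. In PD1- cells they stood at 152, 71.3, 117 and 87.1 CPM with KLRG1 and at 81.3, 68.3, 97.5, 67.4 and 70.6 CPM without it. PD1+ and PD1- libraries did not overlap, and Havcr2 in PD1+KLRG1+ cells had the lowest SD relative to its mean of the 9 genes in that group, at 38.7 CPM around 368 CPM (n = 5). The log2 fold change was 1.76 ± 0.76 (95% interval 0.20 to 3.32, edgeR adjusted p = 0.343) in KLRG1+ and 1.81 ± 0.70 (0.38 to 3.25, adjusted p = 0.279) in KLRG1- cells, so the difference was not called in the model of all 27 libraries. That model shares 1 estimate of the spread, and Havcr2 in the Iso PD1-KLRG1+ libraries was 72.1, 113, 0 and 0 CPM. Without those 4 libraries the log2 fold changes were 1.74 ± 0.24 and 1.82 ± 0.22, and both were called (edgeR adjusted p = 0.000144 and 1.57e-05).

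Tigit encodes a receptor that competes with the stimulatory receptor CD226 for the ligand CD155. It was measured at 149, 108, 222, 96.6 and 108 CPM in Tri PD1+KLRG1+ and at 147, 139.85, 141, 101 and 77.2 CPM in Tri PD1+KLRG1-. PD1- cells under Tri held 49.7, 84.6, 46.3 and 43.6 CPM with KLRG1 and 49.0, 48.1, 58.8, 40.5 and 44.9 CPM without it. Within each KLRG1 gate the PD1+ libraries all lay above the PD1- libraries, though the lowest PD1+KLRG1- library, at 77.2 CPM, lay below the highest PD1-KLRG1+ library, at 84.6 CPM. Tigit had a log2 fold change of 1.28 ± 0.54 in KLRG1+ cells (edgeR adjusted p = 0.333) and 1.23 ± 0.50 in KLRG1- cells (adjusted p = 0.338). Without the 4 Iso PD1-KLRG1+ libraries it was 1.31 ± 0.29 and 1.27 ± 0.26, and both were called (adjusted p = 0.00854 and 0.00472). In that fit 3 of the 8 receptors were called higher in each gate, namely Lag3, Havcr2 and Tigit, and 0 lower, against 1.68% of all genes called higher and 1.71% lower in KLRG1+ cells, and 1.91% and 1.93% in KLRG1- cells.

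Cd200r1 encodes the receptor of CD200, which restrains myeloid cells and some T cells. Its libraries stood at 0, 26.2, 32.8, 14.0 and 28.6 CPM in Tri PD1+KLRG1+ and 41.8, 66.0, 48.3, 58.5 and 45.2 CPM in Tri PD1+KLRG1-. Of the 4 Tri PD1-KLRG1+ libraries 3 had no Cd200r1 count and the other stood at 1.25 CPM, and in Tri PD1-KLRG1- cells the libraries stood at 1.42, 4.44, 17.6, 2.64 and 0 CPM. PD1+KLRG1- cells thus held the most, with every library above all others, while 1 PD1+KLRG1+ library without a count overlapped the PD1- cells. The log2 fold change with PD-1 was 5.98 ± 1.90 (95% interval 2.06 to 9.89, edgeR adjusted p = 0.154) in KLRG1+ and 3.35 ± 1.51 (0.24 to 6.46, adjusted p = 0.443) in KLRG1- cells. Neither was called, and without the 4 Iso PD1-KLRG1+ libraries the KLRG1+ value was the same with an adjusted p of 0.0598. Under DESeq2 the KLRG1+ difference was called at 6.27 (adjusted p = 0.000859). Cd200, the gene of its ligand, was called higher with PD-1 in both gates, by 8.18 ± 1.47 and 4.19 ± 1.07 on the log2 scale (edgeR adjusted p = 0.00379 and 0.0469). Cd200 was also the gene with the group profile nearest to that of Cd200r1, with means of 35.0, 72.1, 0.117, 3.66, 0 and 7.48 CPM in the order of the groups given above. Over single libraries in place of group means, Cd200 was not among the 2 nearest genes, which were Mfsd13a and Tnfsf11.

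Btla encodes a receptor of the TNF receptor family member HVEM and is held by resting as well as activated lymphocytes. It was the only member whose level was lower in PD1+ cells in both KLRG1 gates with no overlap of libraries. In Tri PD1+KLRG1+ cells it stood at 0, 0, 0, 10.2 and 5.01 CPM and in Tri PD1+KLRG1- cells at 11.04, 3.20, 0.994, 9.26 and 3.31 CPM. In Tri PD1-KLRG1+ cells it stood at 11.6, 32.5, 20.3 and 11.3 CPM and in Tri PD1-KLRG1- cells at 21.9, 45.6, 24.9, 14.0 and 40.04 CPM. The nearest values in each gate were 10.2 against 11.3 CPM and 11.04 against 14.0 CPM, so the groups were separated by little. The log2 fold change was -3.74 ± 1.62 (95% interval -7.10 to -0.38, edgeR adjusted p = 0.355) in KLRG1+ cells and -2.52 ± 1.28 (-5.18 to 0.13, adjusted p = 0.586) in KLRG1- cells, and neither was called, nor were they without the 4 Iso PD1-KLRG1+ libraries. In the 18 libraries without an RNA number Btla was called lower in PD1+KLRG1+ cells (adjusted p = 0.00811), where all 3 PD1+ libraries of that series had no count.

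Ctla4, whose protein takes CD80 and CD86 away from the stimulatory receptor CD28, stood at 123, 78.6, 103, 99.99 and 53.2 CPM in Tri PD1+KLRG1+ and at 92.8, 134, 115, 85.9 and 58.5 CPM in Tri PD1+KLRG1-. PD1- cells under Tri held 54.0, 51.9, 44.7 and 44.0 CPM with KLRG1 and 56.6, 31.5, 83.1, 53.3 and 15.2 CPM without it. Means were 1.88-fold and 2.03-fold higher in PD1+ cells, but 1 PD1+KLRG1+ library fell inside the PD1- range and the KLRG1- groups overlapped further. The log2 fold changes were 0.90 ± 0.49 and 0.96 ± 0.46 (edgeR adjusted p = 0.554 and 0.507), with 95% intervals of -0.11 to 1.92 and 0.02 to 1.91. Entpd1, which encodes the ATP-cleaving enzyme CD39, averaged 201 ± 82.9 CPM (n = 5) and 153 ± 33.3 CPM (n = 5) in PD1+ cells with and without KLRG1. In the Tri PD1- groups it averaged 86.9 ± 51.9 CPM (n = 4) and 86.2 ± 23.7 CPM (n = 5), and libraries overlapped in both gates. Its log2 fold changes were 1.12 ± 0.78 and 0.80 ± 0.72 (adjusted p = 0.735 and 1). Neither gene was called without the 4 Iso PD1-KLRG1+ libraries, where the adjusted p was 0.217 and 0.168 for Ctla4 and 0.104 and 0.31 for Entpd1.

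Cd160, a receptor that shares the ligand HVEM with BTLA and is expressed by cytotoxic lymphocytes, did not follow the gate. Its group means lay between 92.8 ± 17.1 CPM (n = 4, Tri PD1-KLRG1+) and 136 ± 41.0 CPM (n = 4, Iso PD1-KLRG1-), and libraries overlapped between all neighbouring groups in the order of levels. The log2 fold change with PD-1 was 0.40 ± 0.40 (95% interval -0.41 to 1.22) in KLRG1+ cells and -0.17 ± 0.37 (-0.92 to 0.59) in KLRG1- cells (edgeR adjusted p = 0.914 and 1, or 0.575 and 0.97 without the 4 Iso PD1-KLRG1+ libraries). The widest spread was in Tri PD1+KLRG1+, from 35.3 to 211 CPM, against 91.0 to 132 CPM in Tri PD1+KLRG1-. A test of whether the PD-1 difference itself differed between KLRG1 gates called 0 of the 9 members, with 0% of all genes called higher and 0% lower. At an unadjusted p under 0.05 it gave 0 members and 638 genes, and DESeq2 called 0 members and 197 genes.

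Over all 9 members the median log2 fold change with PD-1 was 1.28 in KLRG1+ and 1.23 in KLRG1- cells, against -0.01 and 0.06 over all genes tested. Pdcd1, which set the gate, is among the 9. Markers of CD8 T cells moved with the gate in part, with 2 of 8 called higher and 1 lower in each KLRG1 gate. Cd8a (0.63 and 0.50 on the log2 scale) and Cd3g (0.82 and 0.71) were higher with PD-1, and Ptprc (-0.75 and -0.72) was lower. Of all genes 0.491% were called higher and 0.711% lower in KLRG1+ cells, and 0.619% and 0.939% in KLRG1- cells. Markers of other cells moved with the gate in part too. The summed level of 7 markers of CD4 or regulatory T cells was 202 to 587 CPM in Tri PD1+ libraries and 55.1 to 198.5 CPM in Tri PD1- libraries, with 0 of the 7 called in the fit of all libraries and 2 of 7 called higher in each gate without the 4 Iso PD1-KLRG1+ libraries. Those were Tnfrsf4 (3.65 ± 0.64 and 3.98 ± 0.61 on the log2 scale, edgeR adjusted p = 0.00131 and 0.00018) and Ccr8 (5.80 ± 1.264 and 3.67 ± 1.03, adjusted p = 0.00863 and 0.0442). Ccr8 averaged 56.0 and 99.0 CPM in the PD1+ groups with and without KLRG1, and 0.953 and 7.75 CPM in the matching PD1- groups. In PD1+ libraries Cd4 was at most 7.15 CPM and Foxp3 at most 7.95 CPM. Foxp3 went the other way, at means of 1.59 and 2.35 CPM in the PD1+ groups with and without KLRG1. In the matching PD1- groups its means were 8.60 and 9.69 CPM, and it was not called. The summed level of 15 myeloid markers was 490.5 to 1121 CPM in Tri PD1+ and 322.5 to 748 CPM in Tri PD1- libraries, with 0 of 15 called, and 3 of 15 (Fcer1g, Cd74 and Cst3) called higher in each gate without the 4 libraries. That last fit called 1.68% of all genes higher in KLRG1+ and 1.91% in KLRG1- cells. The list was mixed, with median log2 fold changes of 0.66 and 0.64 in the fit of all libraries. Itgam (-1.71 and -2.72) and Cd68 (-1.08 and -0.74) were lower in both gates there. In KLRG1- cells 1 of 3 B cell markers tested was called lower with PD-1, Ighm (-2.38 ± 0.52, edgeR adjusted p = 0.0123). So was 1 of 5 NK or innate-like markers tested, Cd7 (-2.20 ± 0.39, adjusted p = 0.00151), where 0.939% of all genes were. Of the other NK or innate-like markers there, Klrb1c (-1.88) and Eomes (-0.75) were lower and not called. Fcer1g (2.39) and Tyrobp (0.64), which are also in the myeloid list, were higher and not called. In KLRG1+ cells 0 of either list were called in the fit of all libraries. Without the 4 Iso PD1-KLRG1+ libraries the NK list had 1 called higher (Fcer1g) in each gate and 1 lower (Cd7) in KLRG1- cells. The part of these other cells in the receptor levels was not tested.

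**Figure D3:**
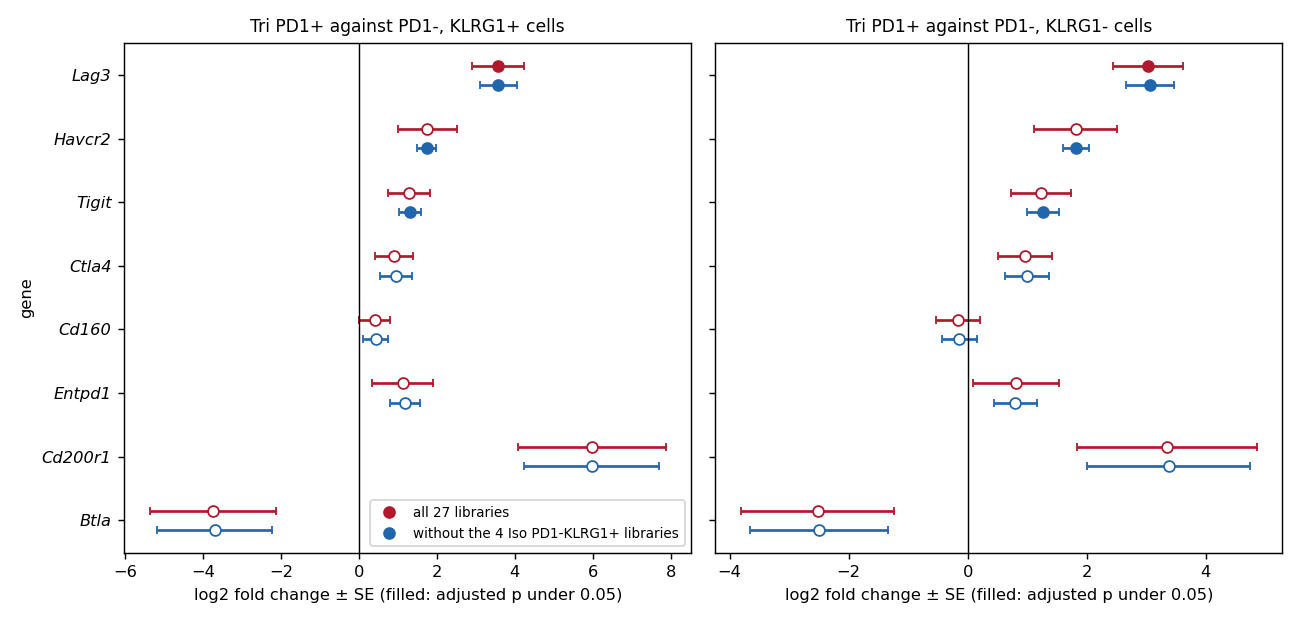
Log2 fold change of PD1+ against PD1- cells under Tri (horizontal axis, ± SE) for the 8 receptors other than Pdcd1, in KLRG1+ cells (left) and KLRG1- cells (right). Red points come from the fit of all 27 libraries and blue points from the fit without the 4 Iso PD1-KLRG1+ libraries, and filled points have an adjusted p under 0.05. Lag3 is filled in every fit shown, Havcr2 and Tigit only in blue, and the fold changes themselves hardly differ between the fits.

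The KLRG1 gate was compared within PD1+ and within PD1- cells, which asks whether late effector marking changes the receptors at a given PD-1 state. Under Tri no member was called. In PD1+ cells edgeR called 0 of 9 members, with 0.0285% of all genes called higher and 0.0285% lower, and in PD1- cells it called 0 of 9, with 0% of all genes in each direction. At an unadjusted p under 0.05 these comparisons gave 0 members of 930 genes and 1 member, Cd200r1, of 675 genes. DESeq2 called 0 members in both, of 205 and 192 genes. Without the 4 Iso PD1-KLRG1+ libraries edgeR again called 0 of 9 in both, with 0.0571% of all genes higher and 0.0286% lower in PD1+ cells, and 0% and 0.00714% in PD1- cells. The comparisons share libraries with those of the PD-1 gate.

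Intervals show how large a KLRG1 difference these libraries leave possible. For Lag3 in PD1+ cells the log2 fold change was 0.03 ± 0.54 (95% interval -1.09 to 1.15), with means of 96.5 ± 31.0 and 95.8 ± 17.6 CPM (n = 5 each). For Ctla4 it was -0.04 ± 0.46 (-0.99 to 0.90), for Tigit 0.18 ± 0.50 (-0.83 to 1.20), for Havcr2 0.41 ± 0.68 (-0.98 to 1.80) and for Entpd1 0.38 ± 0.72 (-1.10 to 1.85). Cd200r1 was the exception in its raw levels, with every PD1+KLRG1+ library (0 to 32.8 CPM) below every PD1+KLRG1- library (41.8 to 66.0 CPM). The share of all genes without overlap was not counted here. For Cd200r1 no call was made in this comparison. Its mean with KLRG1 was 0.391 times that without, and its log2 fold change was -1.34 ± 1.38 (-4.18 to 1.504). In PD1- cells Cd200r1 was again lower with KLRG1, at means of 0.313 ± 0.626 (n = 4) and 5.22 ± 7.11 CPM (n = 5), with a log2 fold change of -3.97 ± 1.70 (-7.49 to -0.45, edgeR adjusted p = 0.993). The other members of the PD1- comparison had log2 fold changes from -0.52 for Lag3 to 0.46 for Havcr2.

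Under the isotype control the KLRG1 comparison looked different, and it rests on the 4 Iso PD1-KLRG1+ libraries. Ctla4, Cd200r1 and Btla had no count in any of them, where 3 counts would have been 0.429, 0.418, 32.2 and 0.151 CPM in replicates 1 to 4. In the 4 Iso PD1-KLRG1- libraries Ctla4 stood at 45.8, 12.3, 9.81 and 13.6 CPM, Btla at 49.0, 41.9, 18.7 and 41.6 CPM, and Cd200r1 at 6.63, 2.84, 2.03 and 14.6 CPM. The libraries did not overlap for any of these genes, and the share of all genes with that pattern was not counted in this comparison. A floor of 3 counts was taken over the 34185682 counts of the whole group, of which replicate 4 held 19929546. Against it, Ctla4 was at least 232-fold, Btla at least 431-fold and Cd200r1 at least 74.3-fold lower in KLRG1+ cells. These bounds cover counting error only. In the Iso PD1-KLRG1+ libraries 9.81% to 29.4% of the 6951 genes described earlier had no count. How far such loss set the zeros of these receptors was not tested. Ctla4, Btla and Cd200r1, 3 of 9 members, were called lower (edgeR adjusted p = 8.16e-07, 0.00397 and 0.0299) and 0 higher. Of all genes 7.43% were called lower and 1.24% higher. Over all genes the median log2 fold change was -0.52 in this comparison, so the fits themselves were shifted towards lower values in KLRG1+ cells.

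The remaining members were split by library within Iso PD1-KLRG1+. Havcr2 stood at 72.1, 113, 0 and 0 CPM in replicates 1 to 4, Pdcd1 at 204, 146, 0 and 0.0502 CPM, Tigit at 43.6, 1.67, 32.2 and 4.01 CPM, and Entpd1 at 61.1, 33.2, 172 and 0 CPM. Cd160 had counts in all 4 libraries, at 194, 149, 32.2 and 66.1 CPM. In replicate 3, with its low total, 32.2 CPM is 3 counts. Replicates 1 and 2 thus held Pdcd1 and Havcr2 above the level of all Iso PD1-KLRG1- libraries, whose highest values were 78.7 and 21.1 CPM, and replicate 4 held almost none. Replicate 3 had no count of either gene. Since 3 counts there exceed that highest Havcr2 value, low levels could not be measured in it. Without replicates 3 and 4 Havcr2 was called higher in Iso KLRG1+ cells (log2 fold change 2.46, edgeR adjusted p = 6.44e-06), as was Pdcd1 (1.63, adjusted p = 0.00624). Without replicate 4 alone Havcr2 was called at 2.14 (adjusted p = 0.00128), against 1.57 ± 0.80 (adjusted p = 0.214) with all 4. Both fits leave out libraries where Havcr2 had no count, so these calls describe the libraries kept. The fit without replicates 3 and 4 was chosen after the data were seen, and it called 1675 of all genes. The Cd200r1 call was lost without Iso PD1-KLRG1+ replicate 1 (adjusted p = 0.0563), 2 (0.0586) or 4 (0.071), without Iso PD1-KLRG1- replicate 4 (0.0587), without both replicates 3 and 4 of the KLRG1+ group (0.0764), and with the replicate number as a block (0.0647). Ctla4 and Btla were called lower in each of these fits.

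The treatment was compared in PD1- cells, which asks how far the receptors differ between Tri and Iso at a low PD-1 level. In PD1-KLRG1- cells, where both groups were well covered, Havcr2, Tigit and Entpd1 stood 4.83-fold, 3.04-fold and 3.39-fold higher under Tri with no overlap of libraries, a pattern shared by 2.61% of all genes tested. In the model of all 27 libraries 0 of 9 members were called, against 0.263% of all genes called higher and 0.541% lower. At an unadjusted p under 0.05 there were 4 members (Havcr2, Tigit, Ctla4 and Entpd1), among 1125 of all 14059 genes. DESeq2 called 1 member, Tigit (adjusted p = 0.0377), among 373 genes. Without the 4 Iso PD1-KLRG1+ libraries, which take no part in this comparison but in its estimate of the spread, 3 of 9 members were called higher and 0 lower, where 0.971% and 1.19% of all genes were.

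Havcr2 stood at 81.3, 68.3, 97.5, 67.4 and 70.6 CPM in Tri PD1-KLRG1- and at 18.7, 9.57, 14.5 and 21.1 CPM in Iso PD1-KLRG1-. The lowest Tri library was thus over 3 times the highest Iso library. The log2 fold change was 2.24 ± 0.77 (95% interval 0.66 to 3.83, edgeR adjusted p = 0.254) with all libraries and 2.23 ± 0.25 without the Iso PD1-KLRG1+ libraries (adjusted p = 7.81e-06). Tigit stood at 27.1, 7.33, 17.8 and 11.3 CPM in the Iso libraries, below its lowest Tri library at 40.5 CPM. Its log2 fold change was 1.71 ± 0.56 (0.57 to 2.85, edgeR adjusted p = 0.203), and 1.68 ± 0.29 without the Iso PD1-KLRG1+ libraries (adjusted p = 0.00268).

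Entpd1 stood at 78.8, 113, 109, 70.3 and 59.9 CPM in Tri PD1-KLRG1- and at 37.2, 11.03, 19.4 and 34.2 CPM in Iso PD1-KLRG1-, again with no overlap. Entpd1 had a log2 fold change of 1.72 ± 0.80 (0.08 to 3.36, edgeR adjusted p = 0.57), and 1.73 ± 0.40 without the Iso PD1-KLRG1+ libraries (adjusted p = 0.0191). Ctla4 averaged 47.9 ± 25.9 CPM (n = 5) under Tri and 20.4 ± 17.0 CPM (n = 4) under Iso, with a log2 fold change of 1.29 ± 0.50 (0.26 to 2.32, adjusted p = 0.372). Its libraries overlapped, since Iso replicate 1 stood at 45.8 CPM and Tri replicate 5 at 15.2 CPM. Pdcd1 was 1.06 ± 0.76 higher on the log2 scale (-0.49 to 2.61, adjusted p = 1), within overlapping libraries and within the PD1- gate. Lag3, at 11.2 ± 4.62 (n = 5) and 6.97 ± 2.32 CPM (n = 4), gave 0.71 ± 0.60 (-0.53 to 1.95), and Cd160 gave -0.13 ± 0.39 (-0.93 to 0.67), Cd200r1 -0.50 ± 1.49 (-3.58 to 2.59) and Btla -0.51 ± 1.28 (-3.15 to 2.13), each with an edgeR adjusted p of 1.

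The receptor that separated PD-1 states most clearly, Lag3, was therefore not among those that separated the treatments in PD1-KLRG1- cells, but no test compared the 2 differences, and both use the 5 Tri PD1-KLRG1- libraries. The median of the 9 log2 fold changes with treatment was 1.06, against -0.09 over all genes. Markers of other cells went the other way: the summed level of the 15 myeloid markers was 379 to 748 CPM under Tri and 1190 to 4742 CPM under Iso in PD1-KLRG1- cells, with 2 of 15 called lower under Tri, and 6 of 15 without the 4 Iso PD1-KLRG1+ libraries. The part of those cells in the receptor levels was not tested.

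**Figure D4:**
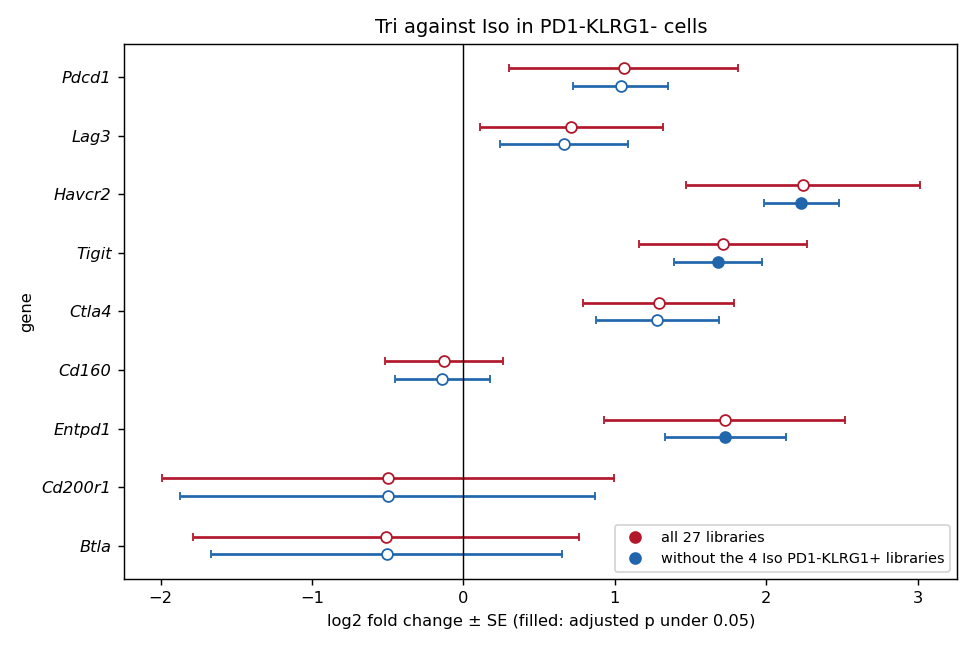
Log2 fold change of Tri against Iso in PD1-KLRG1- cells (horizontal axis, ± SE) for the 9 receptor genes. Red points come from the fit of all 27 libraries, blue points from the fit without the 4 Iso PD1-KLRG1+ libraries, and filled points have an adjusted p under 0.05. Havcr2, Tigit and Entpd1 are filled in blue only, while Cd160, Cd200r1 and Btla lie near or below 0.

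In PD1-KLRG1+ cells the treatment comparison again sets libraries with counts against libraries without. Ctla4 was 54.0, 51.9, 44.7 and 44.0 CPM under Tri and 0 in all 4 Iso libraries, at least 555-fold higher, and Btla was 11.6, 32.5, 20.3 and 11.3 CPM under Tri and 0 under Iso, at least 216-fold higher. These bounds too cover counting error only. Ctla4 and Btla were both called (edgeR adjusted p = 3.18e-07 and 0.00922), 2 of 9 members higher and 0 lower, where 5.46% of all genes were called higher and 0.619% lower. Markers of other cells differed in this comparison too: 4 of 15 myeloid, 2 of 5 NK or innate-like and 1 of 6 tumour or stroma markers were called lower under Tri. The summed myeloid level was 322.5 to 459 CPM under Tri and 375.5 to 11380 CPM under Iso, and its part in the receptor levels was not tested. When only the 2 groups compared were fitted, neither Ctla4 nor Btla was called (edgeR adjusted p = 0.139 for both). That fit called 0 of all genes tested, so it cannot decide about these 2. Tigit had a log2 fold change of 1.80 ± 0.60 (edgeR adjusted p = 0.074) and was called without Iso replicate 1 (3.39, adjusted p = 0.00108). That replicate held the highest Tigit level of the Iso PD1-KLRG1+ group, at 43.6 CPM, so the call describes the libraries kept. The Havcr2 and Pdcd1 levels of Iso replicates 1 and 2 overlapped those of the Tri libraries, with log2 fold changes of 1.13 ± 0.79 and -0.07 ± 0.80 (adjusted p = 0.429 and 1). A test of whether the KLRG1 difference differed between Tri and Iso called 2 of 9 members higher, Ctla4 and Btla (edgeR adjusted p = 8.99e-06 and 0.02), and 0 lower, against 3.41% and 0.185% of all genes. Without Iso PD1-KLRG1+ replicates 3 and 4 that test also called Havcr2 (-1.96, adjusted p = 0.00245) and Pdcd1 (-1.98, adjusted p = 0.0149) lower. The replicates left out had no Havcr2 count and at most 0.0502 CPM of Pdcd1, so these calls describe the libraries kept. That fit called 972 of all genes. With all libraries the median log2 fold change over all genes was 0.34 in the treatment comparison. In the test of the KLRG1 difference between Tri and Iso it was 0.48, so both were shifted upwards. The Iso PD1-KLRG1+ libraries enter both of these comparisons, and how far their many genes without a count set these calls was not tested.

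Other genes of the receptors' pathways were followed in 7 lists. Their counts with PD-1 stand beside 0.491% of all genes called higher and 0.711% lower in KLRG1+ cells, and 0.619% and 0.939% in KLRG1- cells. Of 13 ligands and partners tested, 1 was called higher and 0 lower with PD-1 in KLRG1+ cells, and 1 higher and 1 lower in KLRG1- cells. The gene that rose was Cd200 in both, and the gene that fell was Lgals9, which encodes the TIM-3 ligand galectin 9 (log2 fold change -1.11 ± 0.22, edgeR adjusted p = 0.00443). Of 16 intracellular signalling partners, 1 was called lower in each gate and 0 higher. In KLRG1+ cells this was Dgka, a diacylglycerol kinase that dampens T cell receptor signalling (-1.19 ± 0.27, adjusted p = 0.0235), and in KLRG1- cells Sh2d1a, the adaptor SAP (-0.998 ± 0.25, adjusted p = 0.0338). Median log2 fold changes of these lists were 0.05 and 0.54 for ligands and -0.16 and -0.22 for signalling partners.

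Of 11 stimulatory receptors that share ligands or families with the inhibitory ones, 2 were called higher in KLRG1+ cells and 3 in KLRG1- cells, with 0 lower in both. Tnfrsf9 (4-1BB) rose by 1.87 ± 0.34 and 2.69 ± 0.32 on the log2 scale (edgeR adjusted p = 0.00291 and 1.55e-05), and Cd244a (2B4), which can also inhibit, by 3.77 ± 0.77 and 3.44 ± 0.70 (adjusted p = 0.00903 and 0.00563). Tnfrsf18 (GITR) rose in KLRG1- cells alone among the calls, by 1.03 ± 0.26 (adjusted p = 0.0436). In the same edgeR fit a difference between gates was not called for any gene. With no count filter edgeR called such a difference for 46 genes, and DESeq2 for 197. When the 4 Iso PD1-KLRG1+ libraries were left out, 4 of the 11 were called higher in each gate (Tnfrsf9, Cd244a, Tnfrsf4 and Tnfrsf18) and 1 and 2 lower. Slamf6, a receptor of less differentiated T cells, was lower in both (-1.76 ± 0.36 and -1.80 ± 0.34, edgeR adjusted p = 0.00487 and 0.00214), and Cd2 in KLRG1- cells (-0.54 ± 0.14, adjusted p = 0.0316). Of 11 further inhibitory receptors tested of 14 listed, 0 were called in KLRG1+ cells (2 at an unadjusted p under 0.05) and 1 was called lower in KLRG1- cells. That was Vsir, the gene of VISTA (-0.91 ± 0.19, adjusted p = 0.0094). Without the 4 libraries Vsir was lower in both gates (adjusted p = 0.0281 and 0.00157), and 2 of the 11 were called higher in KLRG1- cells, Klrd1 (1.03 ± 0.26, adjusted p = 0.0209) and Ceacam1 (adjusted p = 0.0479). Pvrig, Lilrb4a and Tmigd2 were not matched by symbol and are not analysed here.

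Among 21 transcription factors of activated and exhausted T cells, 1 was called higher and 2 lower with PD-1 in each gate. Irf8 rose by 2.37 ± 0.33 and 2.41 ± 0.31 (edgeR adjusted p = 0.000558 and 2.53e-05). Foxo1, a factor of quiescent and memory T cells, fell (log2 fold change -1.79 ± 0.43 and -2.03 ± 0.41, adjusted p = 0.0297 and 0.00544), and so did Id3 (-9.96 ± 1.40 and -4.07 ± 0.98, adjusted p = 0.000824 and 0.04). Of 8 genes of the adenosine pathway, into which CD39 feeds, 0 were called in either gate, with 1 and 0 at an unadjusted p under 0.05. Of 9 genes of receptor turnover and trafficking 0 were called in either, with 1 and 1 at that level. In the fit lacking the 4 Iso PD1-KLRG1+ libraries 4 and 3 of the 21 factors were called higher and 2 and 3 lower, against the shares of all genes given above for that fit. Tox, a factor of T cell exhaustion, was then among those higher in both gates (2.63 ± 0.32 and 1.91 ± 0.28, edgeR adjusted p = 3.58e-05 and 0.000113), and Irf8, Foxo1 and Id3 were called in both as before. The adenosine list had 1 lower (P2rx7) in KLRG1+ cells, the trafficking list 1 lower (Rab8a) in KLRG1- cells, the ligands 2 higher and 1 lower in KLRG1- cells, and the signalling partners 2 lower there.

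**Figure D5:**
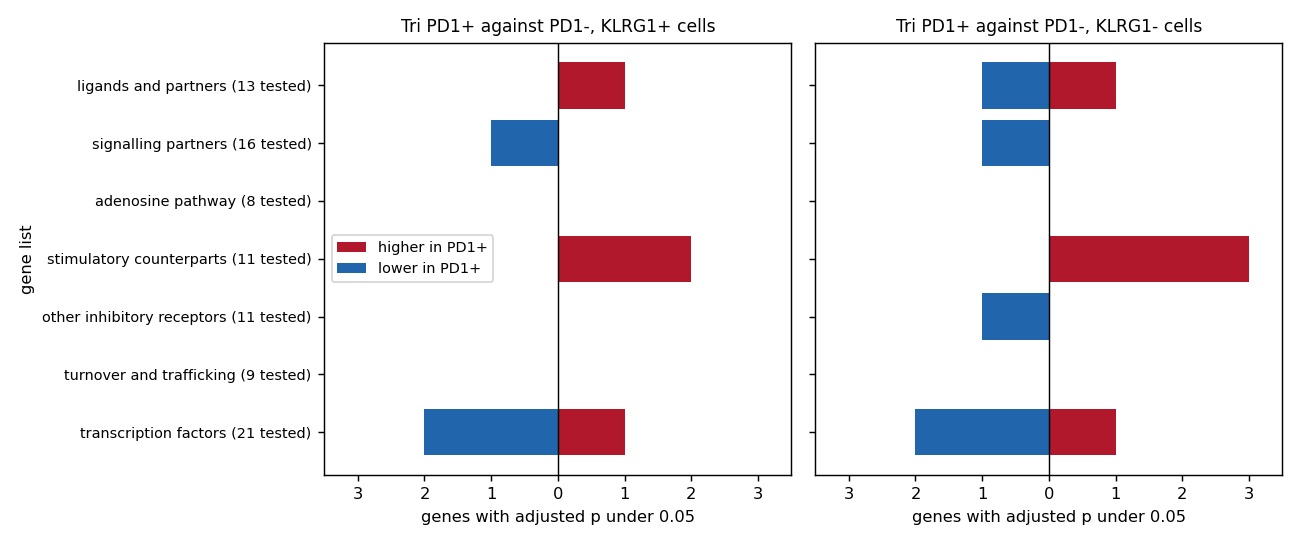
Number of genes with an adjusted p under 0.05 in each of 7 pathway lists, in the fit of all 27 libraries, for PD1+ against PD1- cells under Tri, in KLRG1+ cells (left) and KLRG1- cells (right). Bars to the right count genes higher in PD1+ cells and bars to the left genes lower. Stimulatory counterparts have 2 and 3 genes higher and none lower, the adenosine and trafficking lists have none, and no list has over 3 in a direction.

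With treatment in PD1-KLRG1- cells, 3 genes of the 7 lists were called, all higher under Tri: Klrc1, which encodes the inhibitory receptor NKG2A (2.07 ± 0.29, edgeR adjusted p = 0.000253), and the factors Bhlhe40 (1.80 ± 0.25, adjusted p = 0.000208) and Id2 (1.20 ± 0.25, adjusted p = 0.012). Beside them 0.263% of all genes were called higher. Without the 4 Iso PD1-KLRG1+ libraries the lists held 10 calls, all higher, where 0.971% of all genes were, among them 4 of 16 signalling partners, and Cd28 and Icos (0.89 ± 0.19 and 1.08 ± 0.22, adjusted p = 0.00959 and 0.00994). Klrc1 and Id2 were also called higher under Tri in PD1-KLRG1+ cells (1.12 ± 0.30 and 0.97 ± 0.25, adjusted p = 0.0235 and 0.0211). There 4 of 16 signalling partners were called higher and 0 lower, where 5.46% of all genes were called higher, 0.619% lower and the median of all genes was 0.34, led by Inpp5d, the phosphatase SHIP-1 (1.90 ± 0.33, adjusted p = 0.000652), Sh2d1a (1.502 ± 0.29, adjusted p = 0.00172) and Cblb (1.25 ± 0.29, adjusted p = 0.00973). Of the stimulatory receptors Cd28 and Icos were higher (1.14 ± 0.26 and 1.18 ± 0.32, adjusted p = 0.00929 and 0.0276) and Cd244a lower (-2.61 ± 0.77, adjusted p = 0.0428). Lrba, whose protein keeps CTLA-4 from being degraded, was called higher in the same comparison (8.93 ± 1.41, adjusted p = 0.000234), as was Tnfrsf14, the gene of the BTLA and CD160 ligand HVEM (8.71 ± 2.51, adjusted p = 0.0398). These last fits set counts against groups with few or none and give no size.

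Members were also compared with one another and with all genes by the shape of their profile over the 6 groups. The measure was the root-mean-square difference of log2(mean CPM + 1) after centring, over 10158 genes with at least 10 CPM in the highest group. The Iso PD1-KLRG1+ means include replicate 3, where 172 CPM of Entpd1 are 16 counts and 32.2 CPM of Tigit are 3 counts. Among members the closest pair was Pdcd1 and Lag3 at 0.316, followed by Tigit and Entpd1 at 0.421 and Havcr2 and Tigit at 0.46. The PD-1 gate shaped the Pdcd1 profile, so distances to Pdcd1 describe the sort and are no result. Btla was farthest from the rest, at 1.82 to 2.96 from each other member. Pdcd1 was nearest to Exph5 (0.316) and Rgs16 (0.325), and Lag3 to Rgs16 (0.229) and Npnt (0.302). Havcr2 was nearest to Galnt3 (0.257) and AA467197 (0.407), Tigit to AA467197 (0.195) and Ppp1r3b (0.257), and Entpd1 to Prdm1 (0.182) and Slc2a3 (0.198). Ctla4 was nearest to Slc52a3 (0.351) and Slc4a7 (0.404), which like it had no count in Iso PD1-KLRG1+ libraries. For Cd200r1 the nearest were Cd200 (0.399) and Plxdc2 (0.459), for Btla Il6st (0.233) and Pou6f1 (0.439), and for Cd160 Snrpa (0.079) and Rpl7l1 (0.0806). Rgs16, a regulator of G protein signalling, had means of 628.5 and 525 CPM in the Tri PD1+ groups and of 29.4 to 59.2 CPM in the PD1- groups. Prdm1, which encodes the effector T cell factor BLIMP-1, had 63.9 and 66.1 CPM in the Tri PD1+ groups and 10.2 CPM in Iso PD1-KLRG1-. Over single libraries in place of group means, none of the 18 nearest genes was the same, so these names hold for group means alone.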

How the data were processed

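RNA-seq was done on 27 libraries of sorted CD8+ cells from MC38 tumours, in 6 groups taken from the sample titles. The authors deposited whole-number counts per Ensembl gene, with no normalization, per the file headers and the values. DESeq2 1.26.0 is named, with no role, per the submitters' processing notes, while no source used here names the aligner, counter, build or strand setting. Symbols and positions came from GENCODE M21, and 47224 of 47729 genes had a symbol. CPM was each count scaled to a library total of 1000000, with no TMM factor.

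Counts were tested with edgeR 4.0.16 (R 4.3.3): TMM scaling, a filterByExpr minimum count of 10, robust quasi-likelihood fits of group means plus a term for the libraries whose names carry an RNA number, and Benjamini-Hochberg adjustment over 14059 genes, with a call at 0.05. All 27 libraries entered 1 fit, since the groups then share 1 estimate of the spread. SE came from dividing each log2 fold change by its root F statistic, and intervals cover 95%. Where a group had no count, folds were lower bounds taken at 3 counts in the summed group, which cover counting error only. The script was tested on simulated data. All 9 members are named, as are at most 3 called genes of each list and comparison, by the smallest p, and the 2 nearest genes of each member, leaving out members and T cell receptor or immunoglobulin segments.

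Alternatives were DESeq2 1.42.0, RLE scaling, only the groups compared, a fit lacking the name-series term, no filter and a minimum of 50, the libraries without the RNA number alone, a replicate block and leaving out each replicate. Fits without the 4 Iso PD1-KLRG1+ libraries, without replicates 3 and 4 of that group, and of the libraries with the RNA number alone were chosen after seeing the data. List genes and markers named from the first of these were chosen after their values were seen. The members and lists were chosen with earlier results of these data known.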

Additional observations from a re-analysis of the deposited data

Results flagged for a closer look

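In 7 of 54 sets of 1 gene in 1 group, a library stood far from the others by Dixon's criterion, which chance meets in about 1 in 20 sets. Lag3 stood at 15.7 CPM in Tri PD1-KLRG1+ replicate 2 (next highest 6.42 CPM) and at 19.3 CPM in Tri PD1-KLRG1- replicate 5 (next 10.0 CPM). Tigit stood at 84.6 CPM in Tri PD1-KLRG1+ replicate 2 (next 49.7 CPM). Cd200r1 stood at 17.6 CPM in Tri PD1-KLRG1- replicate 3 (next 4.44 CPM) and at 1.25 CPM in Tri PD1-KLRG1+ replicate 1, where the others had no count. Ctla4 stood at 45.8 CPM in Iso PD1-KLRG1- replicate 1 (next 13.6 CPM), and Cd160 at 196 CPM in the same library (next 123 CPM).

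The KLRG1 difference in PD1- cells differed between Tri and Iso for Ctla4, by 10.99 on the log2 scale (edgeR adjusted p = 8.99e-06), and for Btla, by 12.17 (adjusted p = 0.02). Both genes had no count in the 4 Iso PD1-KLRG1+ libraries, so these fitted values give no size.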

How the results depend on the processing

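In the fits of all 27 libraries 1 and 1 members other than Pdcd1 were called for PD-1 in KLRG1+ and KLRG1- cells, 0 and 0 for KLRG1 in Tri PD1+ and PD1-, 3 for KLRG1 in Iso, 2 and 0 for Tri in PD1-KLRG1+ and PD1-KLRG1-, and 0 and 2 for the 2 interactions. Of all genes 169, 219, 8, 0, 1218, 855, 113, 0 and 505 were called, in the same order. The Lag3 calls held without each replicate (adjusted p 0.00298 to 0.0315 in KLRG1+ and 0.00223 to 0.0176 in KLRG1- cells). Leaving out each replicate gave 2 to 3 members for KLRG1 in Iso and for Tri in PD1-KLRG1+. Of all genes 883 to 1591 and 578 to 1280 were called there. With no count filter 3, 2 and 3 members were called for PD-1 in KLRG1+, PD-1 in KLRG1- and Tri in PD1-KLRG1- cells. Without the 4 Iso PD1-KLRG1+ libraries the numbers were 3, 3 and 3, without replicates 3 and 4 of that group 2, 2 and 2 (and 4 for KLRG1 by Tri), and with only the groups compared 2, 3 and 1 (and 0 for Tri in PD1-KLRG1+). Of all genes these 4 settings called 334, 390 and 251, then 475, 538 and 302, then 301, 363 and 215 (and 972), then 141, 803 and 134 (and 0). DESeq2 called 2 for PD-1 in KLRG1+ and 1 for Tri in PD1-KLRG1-, where 706 and 373 of all genes were called. The libraries without the RNA number gave 0 for PD-1 in KLRG1-, 1 for KLRG1 in Tri PD1+ and 1 for Tri in PD1-KLRG1-, beside 91, 41 and 60 of all genes. Those with it gave 0 and 0 for PD-1, 5 for KLRG1 in Iso, 6 for Tri in PD1-KLRG1+ and 4 for KLRG1 by Tri, where 1, 7, 1994, 2107 and 1662 of all genes were called. In these Iso PD1-KLRG1+, Iso PD1-KLRG1- and Tri PD1-KLRG1+ are 1 library each, assumed to vary like the other groups, so KLRG1 in Iso and Tri in PD1-KLRG1+ set 1 library against 1 and describe those libraries only. Signs turned for KLRG1 in Iso in Pdcd1 (-10.21), Havcr2 (-11.39) and Entpd1 (-12.09), for Tri in PD1-KLRG1+ in Pdcd1 (10.4), and for KLRG1 by Tri in Pdcd1 (9.795), Havcr2 (11.75) and Entpd1 (13.25). The nearest genes shared with the group profiles went from 18 to 0 over single libraries. Except where values are given in the text, the cause was not tested.

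The labels do not tie equal replicate numbers to a mouse or batch, and not every same-numbered pair deviated together: 10 of 31 correlated above 0.1 (r from -0.154 to 0.362), so the numbers were not used as pairs. The 6 pairs of Tri replicate 4 lay at 0.183 to 0.362, and 14 of 27 libraries correlated best with their own number, a hint of sharing in the data. With the replicate block 1 member was called for KLRG1 by Tri, since Btla had an adjusted p of 0.0635 there, and 2 for KLRG1 in Iso, since Cd200r1 had 0.0647. Of all genes 277 and 1235 were called in these comparisons. The block gave Lag3 3.47 and 3.10 (adjusted p = 0.0151 and 0.00753). The Pdcd1 check of the gate in KLRG1+ cells had an adjusted p of 0.0647 with the block and 0.0531 to 0.158 without each replicate.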
